A study of Mus musculus with 2 samples.

Results

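The genes described here encode subunits of NADPH oxidases: Cybb, Cyba, Ncf1, Ncf4, Rac1, Rac2 and Duox2. They were taken by gene name from the spots of the arrays that are not controls, which gave 7 genes with 14 probes, out of 24813 genes that could be named and 56605 probes. All 7 genes had at least 1 probe well above background on both arrays, as did 15714 genes in all. The cells were monocytes from the spleen of ICR mice, an outbred stock, 8 weeks after a 5/6 nephrectomy (5/6Nx), which removes most of the kidney tissue to model chronic kidney disease, or 8 weeks after a sham operation. Antibodies to CD11b and Ly6C were used to sort the cells, and each group has 1 array of 1 colour (Cy3). The sources used here do not state how many mice stand behind each RNA sample, nor their sex or age.

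The phagocyte NADPH oxidase moves electrons from NADPH across a membrane to oxygen and so makes superoxide, which phagocytes use against microbes. Its membrane part, cytochrome b558, is a pair of Cybb (gp91phox, also called NOX2), which carries the electrons, and Cyba (p22phox), which stabilises it. In resting cells the organiser Ncf1 (p47phox) and the adaptor Ncf4 (p40phox) wait in the cytosol, and on stimulation they join the membrane part together with a GTP-bound Rac protein. Rac2 is the Rac of blood cells, whereas Rac1 is found in nearly all cells. Duox2 is a separate NADPH oxidase that makes hydrogen peroxide and is known from thyroid and epithelia. Loss of CYBB, CYBA, NCF1 or NCF4 in humans causes chronic granulomatous disease.

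Values are log2 units of the processed intensity relative to the 75th percentile of each array, and a difference is 5/6Nx minus sham. Each group is a single array, so no error over animals and no test can be given, and each difference describes these 2 arrays. A probe is called measured where the scanner software marked it as well above background on each of the 2 arrays. The brightest measured probe stands for its gene. The only error that could be measured was that between spots of one probe: over 283 probes printed 10 times, the SD of a difference of single spots was 0.06 in log2 units, and 0.20 for the 15 dimmest of them, at levels below 0. This leaves out labelling, sorting and the animals. On the 5/6Nx array 67.0% of 59305 spots were well above background, against 63.0% on the sham array. All 8 monocyte markers looked up were measured on both arrays. Itgam (CD11b) had a difference of -0.35 at its brightest probe and -1.18 at its other measured probe. The Ly6C genes Ly6c1 and Ly6c2 each had 1.98. The remaining markers ranged from -0.89 for Ccr2 to 2.63 for Fcgr1.

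Cybb and Rac2 were higher by 2-fold or more on the 5/6Nx array, which makes 2 of 7 genes (28.6%), beside 12.3% of all measured genes. Duox2 was the 1 gene lower by 2-fold or more (14.3%), beside 10.9% of all measured genes, and the other 4 lay between. The same genes were counted at a threshold of 1.5-fold, which Ncf4 (1.48-fold higher) and Ncf1 (1.47-fold lower) just missed. At that threshold 3267 of all 15714 measured genes were higher and 3645 lower, against 1925 and 1719 at 2-fold. Among all genes at least 2-fold apart, 52.8% were higher. That share was 40.8% when arrays were scaled to their medians and 79.5% when scaled to 8 spike-in probes, settings that move the median of all genes by -0.15 and 0.43. The median difference was 0.15 over the 7 genes and -0.12 over all measured genes.

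The following lines give the first 30 of the 60 bases of the probes on which the 3 largest differences rest, since 2 probes at different positions read Cybb, 1 reads Rac2, and the 3 probes of Duox2 differ in whether they were above background. An annotation of the build mm9 was not used here, so the exon of each probe is not given.
Cybb, probe A_52_P444628 (chrX:9014314-9014373, mm9, minus strand): tccagtctgtaagctgaaaaagaagaacac
Cybb, probe A_55_P2082733 (chrX:9013216-9013275, mm9, minus strand): tttccttgtctttatttttcttgcagacaa
Rac2, probe A_51_P121891 (chr15:78391452-78391511, mm9, minus strand): tcagaaaagcacagaacaaatctacttcag
Duox2, probe A_51_P436977 (chr2:122108679-122108738, mm9, minus strand): gcttgtcgggttccctaacccctacctctg
Duox2, probe A_55_P1974760 (chr2:122106173-122106232, mm9, minus strand): tgccagctcatcaacaggcaggaccgggcc
Duox2, probe A_66_P134717 (chr2:122105952-122106011, mm9, minus strand): tttgcgatgtatagcaaggagaggaaagcc

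The partners of cytochrome b558 differed unequally. Cybb read an intensity of 12072 on the 5/6Nx array and 1177 on the sham array at its brighter probe, a difference of 3.05, or 8.28-fold higher after scaling. Its other probe read 6834 on the 5/6Nx array and 860.1 on the sham array, a difference of 2.68, or 6.42-fold. Both Cybb probes are assigned to the same RefSeq transcript, and both lay well above background on both arrays. Cybb stood at rank 388 from the top among 15714 measured genes, so that 2.47% of them had a difference at least as high. In the authors' value table the brighter probe stood at 11183 on the 5/6Nx array and 1297 on the sham array.

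Cyba read 70517 on the 5/6Nx array and 59769 on the sham array at its brightest probe (chr8:124948726-124948785, mm9), a difference of -0.07. The second probe, for another Cyba transcript, read 16743 on the 5/6Nx array and 15791 on the sham array, a difference of -0.22. The third, dim probe read 196.1 on the 5/6Nx array and 220.7 on the sham array, a difference of -0.48. Unscaled intensities of the first 2 probes were thus slightly higher on the 5/6Nx array and their scaled differences slightly negative. The direction of the brightest probe turned with the scaling: it was -0.22 with median scaling but 0.27 with quantile normalization and 0.36 with spike-in scaling, and 0.14 in the authors' value table. The Cybb difference exceeded that of Cyba by 3.12 log2 units on the same arrays, an 8.69-fold unequal change. No test of this difference is possible with 1 array per group.

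**Figure D1:**
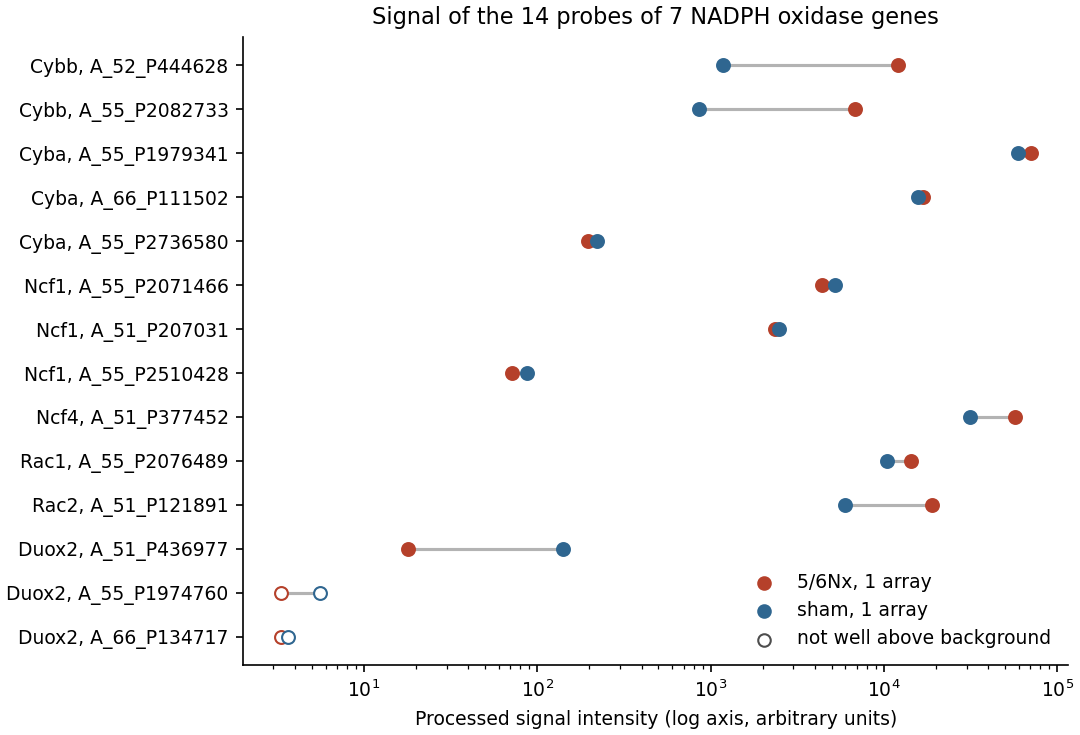
Processed signal intensity (log axis) of each of the 14 probes on the 5/6Nx array (red) and the sham array (blue), before scaling, with open points for probes not well above background. The points lie far apart for both Cybb probes, the Rac2 probe and 1 Duox2 probe, and intensities of different probes cannot be set against each other.

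The cytosolic subunits did not move together. Ncf4 was slightly higher on the 5/6Nx array, with 57401 there and 31411 on the sham array, a difference of 0.56 from its only probe (chr15:78092903-78092962, mm9). The 3 probes of Ncf1 were all lower on the 5/6Nx array. The brightest one (chr5:134696380-134696439, mm9) read 4384 on the 5/6Nx array and 5201 on the sham array, a difference of -0.55. The second read 2367 on the 5/6Nx array and 2474 on the sham array, a difference of -0.37. The third, for a non-coding transcript, read 71.7 on the 5/6Nx array and 87.5 on the sham array, a difference of -0.60. Ncf1 stayed negative under all 9 alternative settings, although its second probe came to 0.06 with spike-in scaling. The 2 settings with a looser filter on dim probes could not change the Ncf1 difference. Relative to the median of all measured genes, Ncf4 stood at 0.68 and Ncf1 at -0.44. Neither gene was 2-fold apart under any of these settings, with Ncf4 closest at 0.99 with spike-in scaling.

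Of the Rac genes, Rac2 had the larger difference. Its probe read 19006 on the 5/6Nx array and 5956 on the sham array, a difference of 1.37, or 2.58-fold higher. A difference at least as high was found in 7.38% of the measured genes. The same probe stood at 17460 on the 5/6Nx array and 6459 on the sham array in the authors' value table. Rac1 (chr5:144267722-144267781, mm9) read 14388 on the 5/6Nx array and 10491 on the sham array, a difference of 0.15, which came to -0.00 with median scaling and to 0.58 with spike-in scaling. Each of these genes has 1 probe, so no second probe can check the value. The Rac2 difference exceeded that of Rac1 by 1.22 log2 units.

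Many markers of T and NK cells, lymphocytes that also use Rac2, were higher on the same array. Of 10 measured T cell markers 7 were at least 2-fold higher (70%) and none at least 2-fold lower, with a median difference of 5.23. Among all measured genes these shares were 12.3% and 10.9%. Of the other measured T cell markers, Cd4 differed by 0.87, Il7r by -0.39 and Cd247 by -0.63. All 4 measured NK cell markers were higher, with a median of 5.51. With normexp background correction these medians were 4.37 for T cells and 4.62 for NK cells. The summed scaled signal was 79.2 on the 5/6Nx array and 28.6 on the sham array for the 12 T cell markers, of which 11 have probes. For the 8 NK cell markers it was 74.8 on the 5/6Nx array and 0.756 on the sham array. On the sham array Cd8a and the NK cell genes Ncr1, Klrb1c, Klrd1 and Eomes were not well above background.

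B cells and neutrophils carry the phagocyte oxidase as well. Of 5 measured B cell markers 1 was at least 2-fold higher (20%), beside 12.3% of all measured genes. Cd79a and Blk were above the background mark after 5/6Nx only. The summed signal of the B cell markers was 3.86 on the 5/6Nx array and 1.77 on the sham array. Of 6 measured neutrophil markers 3 were at least 2-fold higher (50%) and 1 lower (16.7%), beside 12.3% and 10.9% of all measured genes. Mmp9 and Cxcr2 were above the background mark after 5/6Nx only, and Ltf and Ngp on neither array. Lcn2 was 158-fold, Ly6g 23.1-fold and Camp 4.53-fold higher, whereas Mmp8 was 15.7-fold lower. Lcn2, Ly6g and Camp were dim on the sham array, at 49.8, 41.9 and 43.1. With normexp background correction their differences fell from 7.31, 4.53 and 2.18 to 6.27, 3.30 and 1.28. Mmp8 decides the sum, which was 29.3 on the 5/6Nx array and 31.8 on the sham array with it, and 27.9 on the 5/6Nx array and 10.4 on the sham array without it.

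The shares of all measured genes, 12.3% higher and 10.9% lower by 2-fold or more, also stand beside the following counts. Of 4 measured markers of conventional dendritic cells 2 were at least 2-fold higher (50%), Batf3 and Itgae, and 1 lower (25%), Clec10a. Zbtb46 and Clec9a were above the background mark after 5/6Nx only, Cd209a on the sham array only, and Xcr1 on neither. Their summed signal was 7.24 on the 5/6Nx array and 51.1 on the sham array, but without Clec10a it was 4.31 on the 5/6Nx array and 0.426 on the sham array. Of 5 measured red pulp macrophage markers 2 were at least 2-fold higher (40%) and 2 lower (40%). Vcam1 was above the background mark after 5/6Nx only, at least 72.8-fold higher. The red pulp macrophage sum was 180.5 on the 5/6Nx array and 157.0 on the sham array. Of this, Hmox1 gave 83.0 on the 5/6Nx array and 69.1 on the sham array. The brightest Hmox1 probe differed by 0.26, but its other measured probe by -2.82. Of 4 measured plasma cell markers 2 were at least 2-fold higher (50%) and 1 lower (25%). Jchain was above the background mark after 5/6Nx only, at least 1818-fold higher. The plasma cell sum was 104.2 on the 5/6Nx array and 39.5 on the sham array. Without Xbp1 it was 61.6 on the 5/6Nx array and 4.81 on the sham array. Without Gzma the NK cell sum was 26.0 on the 5/6Nx array and 0.691 on the sham array. Without Il7r the T cell sum was 62.8 on the 5/6Nx array and 7.08 on the sham array. For the monocyte markers the sum was 1589 on the 5/6Nx array and 1234 on the sham array. Without Lyz2 it was 1078 on the 5/6Nx array and 500.4 on the sham array. Of the 8 monocyte markers 3 were at least 2-fold higher (37.5%) and none at least 2-fold lower. The part of these cells in the differences of the 7 genes was not tested, and in bulk RNA fewer cells of a type and less RNA per cell cannot be told apart.

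Duox2 gave a lower signal on the 5/6Nx array, from 1 dim probe. Probe A_51_P436977, assigned to the Ensembl transcript ENSMUST00000155820, read 18.0 on the 5/6Nx array and 140.1 on the sham array, a difference of -3.26, or 9.61-fold lower. With normexp background correction the difference was -1.54. The other Duox2 probes, for the RefSeq transcript and for another Ensembl transcript, were not well above background on either array, at 3.31 and 3.30 on the 5/6Nx array and 5.57 and 3.66 on the sham array. The lowest intensity of any probe well above background was 13.7 on the 5/6Nx array, close to the 18.0 of Duox2. The value therefore concerns the stretch that 1 probe reads, not the whole gene.

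**Figure D2:**
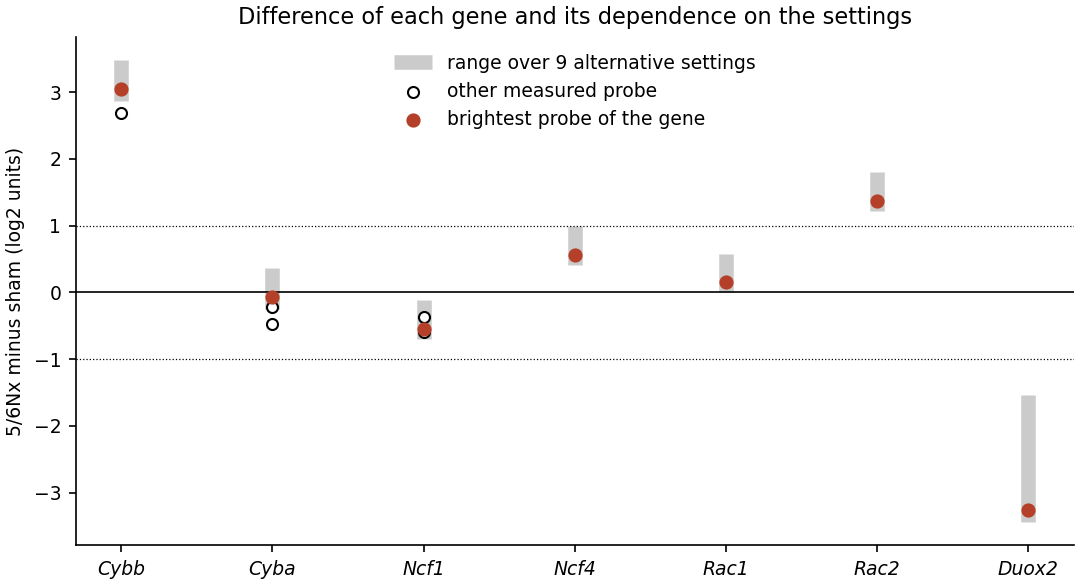
Difference 5/6Nx minus sham (log2 units) of the 7 genes, with the brightest probe in red, other measured probes as open points and the range over 9 alternative settings as grey bars; dotted lines mark 2-fold. Cybb and Rac2 lie above and Duox2 below the dotted lines over their whole range, and the bars of Cyba and Rac1 cross 0.

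**Figure D3:**
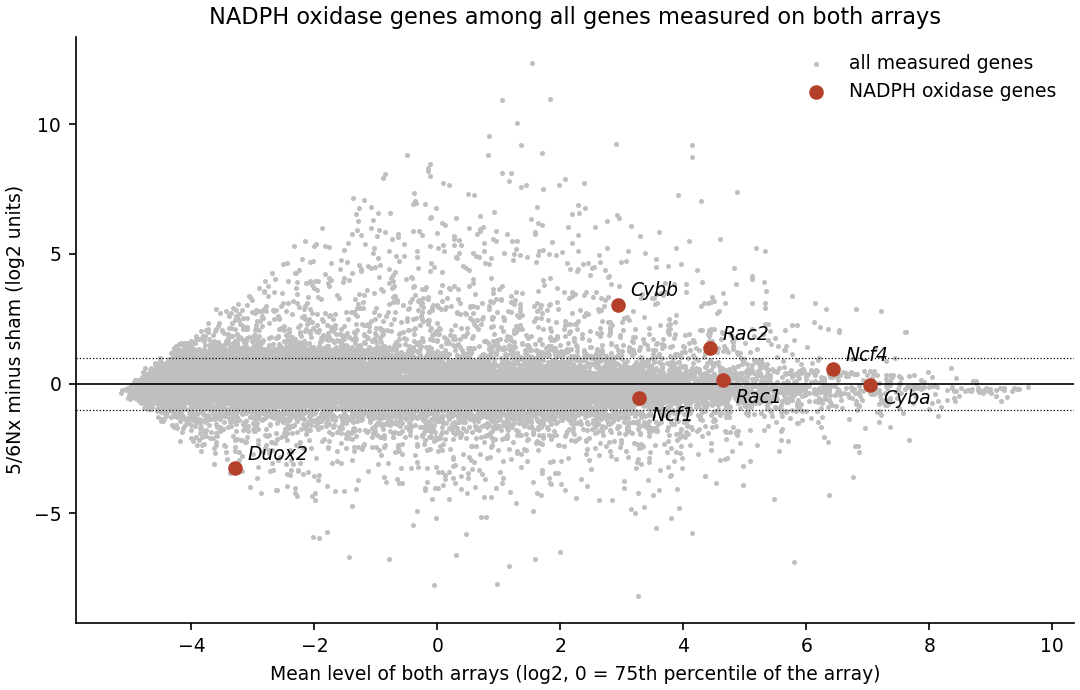
Difference 5/6Nx minus sham against the mean level of both arrays (both log2) for the 15714 genes measured on both arrays, with the 7 NADPH oxidase genes in red and dotted lines at 2-fold. Duox2, at -3.26, lies among the dim genes, and the other 6 have mean levels above 2.07.

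In the list of 10 other oxidases and genes needed for assembly, 6 were measured on both arrays, with a median of -0.02. None of these 6 was 2-fold apart in either direction, beside 12.3% higher and 10.9% lower among all measured genes. Spike-in scaling adds the same 0.43 to every difference. With it the medians of this list and of the Rac and kinase lists were 0.41, 0.39 and 0.36. The median of all measured genes was then 0.31. Cybc1, called BC017643 in the files, encodes a chaperone of cytochrome b558, and it read 4301 on the 5/6Nx array and 2906 on the sham array, a difference of 0.26. Hvcn1, the proton channel that balances the charge the oxidase moves, differed by -0.02. Nox4, an oxidase that needs Cyba but no cytosolic subunits, differed by 0.56 at a probe for a single Ensembl transcript, and its other 3 probes were not well above background on either array. Nox1 was well above background at 1 dim probe on the sham array only, with 15.2 on the 5/6Nx array and 44.0 on the sham array. The signal of that probe was at least 3.58-fold lower after 5/6Nx. The other Nox1 probe, for the same transcript, was not well above background on either array and went the other way. It read 6.70 on the 5/6Nx array and 2.68 on the sham array. Nox3, Duox1 and Duoxa2, the maturation factor of Duox2, were not well above background on either array.

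Among 18 Rac relatives and regulators of Rac, 17 were measured, with a median of -0.04. By 2-fold or more, 2 were higher (11.8%) and 1 lower (5.88%), beside 12.3% and 10.9% of all measured genes. Vav3, a guanine nucleotide exchange factor for Rac, was 3.87-fold lower, with 1305 on the 5/6Nx array and 4079 on the sham array, and its measured probes differed by -1.95 and -1.65. Vav1, the exchange factor of blood cells, differed by 0.87. Arhgdib, which holds Rac in the cytosol, differed by 0.99, whereas its relative Arhgdia differed by -0.43, or -0.00 with spike-in scaling. Arhgap15, a Rac-inactivating protein, read 813.7 on the 5/6Nx array and 324.1 on the sham array, a difference of 1.02, or 0.90 with normexp. Tiam2, another exchange factor, read 94.0 on the 5/6Nx array and 25.5 on the sham array, a difference of 1.58. Its 3 probes ranged from 0.07 to 1.58, and it differed by 0.46 with normexp.

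All 16 listed kinases and signalling enzymes that act on the phagocyte oxidase were measured. Of these 3 were higher by 2-fold or more (18.8%) and 1 lower (6.25%), beside 12.3% and 10.9% of all measured genes, with a median of -0.08. Prkca, a protein kinase C, read 368.3 on the 5/6Nx array and 34.5 on the sham array, a difference of 3.11, or 1.93 with normexp. Prkcz, an atypical protein kinase C, differed by 1.46, or 0.91 with normexp. Pik3cd, a phosphoinositide 3-kinase of leukocytes, differed by 1.19, with all 4 probes between 1.01 and 1.19. Akt1, a kinase downstream of it, differed by -1.10, or -0.67 with spike-in scaling. Prkcb and Prkcd, also protein kinase C forms, differed by 0.07 and -0.23, and the 3 Prkcb probes ranged from -0.40 to 0.60.

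**Figure D4:**
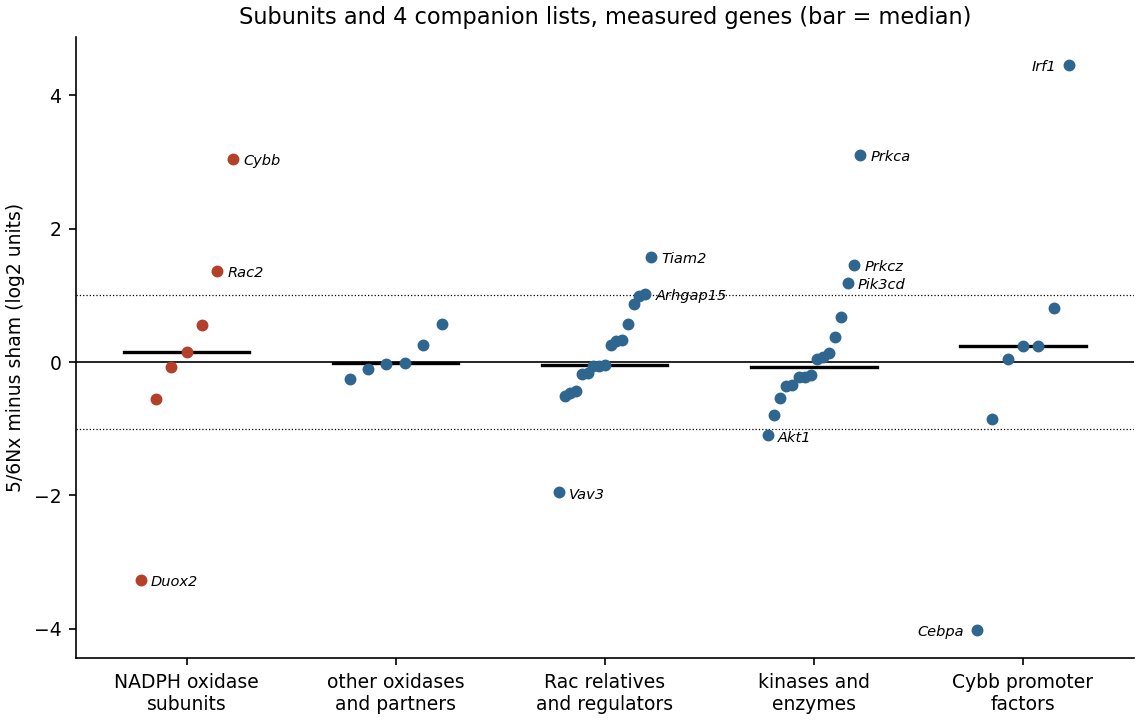
Difference 5/6Nx minus sham (log2 units) of each measured gene in the subunit set (red) and in the 4 lists of related genes (blue), ordered within a list, with a bar at the median and names for genes at least 2-fold apart. The 4 list medians lie between -0.08 and 0.24, beside -0.12 over all measured genes. With spike-in scaling they lie between 0.36 and 0.67, beside 0.31 over all measured genes. Irf1 and Cebpa lie farthest from 0.

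Factors known to act at the Cybb promoter in phagocytes went in different directions. All 7 were measured, with a median of 0.24. By 2-fold or more, 1 was higher (14.3%) and 1 lower (14.3%), beside 12.3% and 10.9% of all measured genes. Irf1, an interferon-induced factor, read 72692 on the 5/6Nx array and 2680 on the sham array, a difference of 4.45. Spi1, which encodes the myeloid factor PU.1, differed by 0.04, and Irf8, its partner, by 0.24. Cebpa, a factor of myeloid development, read 263.8 on the 5/6Nx array and 3448 on the sham array, a difference of -4.02. Elf1, Cebpb and Cebpe differed by 0.81, 0.24 and -0.86. Whether any of these factors acts on Cybb in these cells was not tested.

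Promoters of Cybb, Cyba, Ncf1 and Duox2 were found in the RefSeq table of the build GRCm38.p6, which makes 4 of the 7 genes. Those of Cybb and Ncf1 are shown because they hold matches to a motif of the IRF family, to which Irf1 belongs. Each window has 250 bases before and 50 after the annotated start of the gene. Searched on both strands were GAGGAA (the core bound by PU.1), GGAA followed after any 2 bases by GAAA (a composite site of an ETS factor and an IRF), GAAA repeated after any 2 bases (bound by IRF factors) and TTCNNNGAA (the GAS site of STAT factors). Capitals mark every match to these 4, and a match describes letters, not binding. CCAAT was searched too and is not in capitals.
Cybb promoter (chrX:9469275-9469574, GRCm38.p6, minus strand): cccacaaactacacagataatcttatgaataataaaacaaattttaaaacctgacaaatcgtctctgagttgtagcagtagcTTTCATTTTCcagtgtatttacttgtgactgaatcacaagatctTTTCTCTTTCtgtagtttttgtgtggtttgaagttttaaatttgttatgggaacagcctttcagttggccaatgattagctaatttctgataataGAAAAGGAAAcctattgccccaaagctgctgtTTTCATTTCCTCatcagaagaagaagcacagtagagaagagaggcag
Ncf1 promoter (chr5:134229576-134229875, GRCm38.p6, minus strand): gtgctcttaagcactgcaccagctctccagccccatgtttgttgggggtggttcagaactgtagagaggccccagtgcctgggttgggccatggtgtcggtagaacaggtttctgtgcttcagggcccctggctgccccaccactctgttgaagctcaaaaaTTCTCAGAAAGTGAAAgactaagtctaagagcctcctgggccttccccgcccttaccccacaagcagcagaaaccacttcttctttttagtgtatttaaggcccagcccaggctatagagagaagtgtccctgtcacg

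The Cybb window holds 3 IRF repeats, whose first bases on the printed strand lie at -168, -124 and -29 from the annotated start. It also holds 1 CCAAT at -56 and 1 ETS-IRF composite at 4, which overlaps a PU.1 core at 10. An IRF repeat occurs in 3.44% of the 32851 promoter windows of the table, an ETS-IRF composite in 2.72%, a PU.1 core in 28.3%, a GAS site in 8.30% and CCAAT in 37.4%. The Ncf1 window holds 1 IRF repeat that overlaps a GAS site. The Duox2 window holds 1 CCAAT and no other match, and the Cyba window none of the 5. Among measured genes with an IRF repeat in their window, 26.9% of 464 were higher by 2-fold or more on the 5/6Nx array, against 11.6% of 12407 measured genes with a window in the table. The share was 21.2% for an ETS-IRF composite, 15.1% for a GAS site, 13.5% for a PU.1 core and 11.0% for CCAAT. Cybb was among the 125 genes with an IRF repeat that were higher, and Ncf1 was not. Lower by 2-fold or more were 9.05% of the genes with an IRF repeat and 10.8% of those with any window. That share was 7.16% for an ETS-IRF composite, 9.52% for a GAS site, 11.7% for a PU.1 core and 10.9% for CCAAT. Whether any of these motifs acts on the genes was not tested.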

How the data were processed

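Total RNA of each group was hybridised to 1 array. The authors deposited 1 scanner file per array with linear intensity values from Agilent Feature Extraction, version 10.7.1.1 per the file headers and 9.5.1.1 per the submitters' processing notes. Per the file headers, processed intensities were detrended spatially and multiplicatively within each array, with surrogate values for low spots, the separate background correction switched off and no scaling between arrays. Slide and scan are the same for both arrays. How the authors normalized the linear intensities of their value table was not found in the labels or the file. Deposited 0/1 flags mark outlier, saturated and well-above-background spots.

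Outlier spots of either array (47 for 5/6Nx, 41 for sham, none of the 14 probes) were left out, and spots of a probe were averaged as log2 values. The 75th percentile over all non-control spots was then subtracted (an intensity of 547.5 for 5/6Nx and 442.1 for sham). Probes took their gene from a RefSeq table of GRCm38.p6 through the accession (32994), the symbol (10224) or a synonym (520), and 12867 found no match and were not counted. A gene above background on 1 array only is given as a bound, the bright level over whichever is higher on the dim array, its own probe or the lowest level well above background. Tools were R 4.3.3, limma 3.58.1 (normexp with offset 50, quantile normalization) and Python 3.11.15. Marker sums add, over the listed genes, the brightest probe's intensity divided by the 75th percentile. Sums without the gene that gives most of the signal were chosen after seeing the data, and are given where they move a sum's ratio by over 1.5 times. The steps were tested on simulated data with the same spot noise at all levels and the same background flags on both arrays. That test covers neither genes above background on 1 array only nor the larger noise of dim probes. The fixed rule named all 7 members and, from the 4 related lists, each gene at least 2-fold apart or above background on 1 array only. Other genes of those lists, the marker genes and those named with the motifs fall outside it and were chosen after their values were seen. Of the related and marker lists, 3 genes are not reported here, and the counts, medians and sums of the lists leave them out. Members, lists and motifs were chosen with earlier results of these data known.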

Additional observations from a re-analysis of the deposited data

How the results depend on the processing

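The count of subunit genes at least 2-fold higher (2) or lower (1) kept its value under 10 alternatives. These were normexp, median, quantile and spike-in scaling, the authors' value table and a percentile without outlier spots. The others were the mean over probes, 2 looser filters on dim probes and a threshold of 1.5-fold. Some of them could hardly move the count. The 2 looser filters left all 7 differences unchanged, since the brightest probe of each gene was already measured. The percentile without outlier spots moved the median of all genes by only -0.0015. The mean over probes could not change Ncf4, Rac1, Rac2 and Duox2, each with 1 measured probe. The difference ranged from 2.87 to 3.48 for Cybb, 1.22 to 1.80 for Rac2, 0.41 to 0.99 for Ncf4, -0.70 to -0.12 for Ncf1 and -3.44 to -1.54 for Duox2, whereas Cyba (-0.26 to 0.36) and Rac1 (-0.00 to 0.58) crossed 0. Over the 4 related lists together, 6 of 46 measured genes (13.0%) were at least 2-fold higher and 3 (6.52%) lower, beside 12.3% and 10.9% of all measured genes. With spike-in scaling 11 were higher, and at the 1.5-fold threshold, which is lower by construction, 10 were higher and 5 lower. Among all measured genes, the counts of 1925 higher and 1719 lower became 3326 and 857 with spike-in scaling. With normexp they were 1164 and 1237, and at the 1.5-fold threshold 3267 and 3645. With probes above background on at least 1 array they were 3017 and 2037, and with no filter 3685 and 2697. Spike-in scaling adds the same 0.43 to every difference, and the normexp offset of 50 shrinks the differences of dim probes. The looser filters admit more genes and the lower threshold calls more of them, by construction. Any further cause was not tested. No paired analysis was possible because each group has 1 array. The number of arrays limits the precision, and the differences of Duox2, Prkca, Prkcz and Tiam2, which are dim on at least 1 array, came closer to 0 with normexp. The same held for the markers Lcn2, Ly6g and Camp and for the medians of the T and NK cell markers.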

Other observations

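Among the 32851 promoter windows, 1131 hold at least 1 IRF repeat, 74 at least 2 and 5 at least 3 (0.0152%). The cutoff of 3 is the count in the Cybb window itself, so the place of Cybb among these 5 was fixed in advance. These 5 windows belong to Cybb, Isg15, Washc3, Gm33857 and Gm3512. Isg15, an interferon-induced ubiquitin-like protein, read 102951 on the 5/6Nx array and 540.1 on the sham array, a difference of 7.27. Washc3, a subunit of an actin-regulating complex, read 2327 on the 5/6Nx array and 1814 on the sham array, a difference of 0.05. Gm33857 and Gm3512 are not measured here. Whether the repeats play a part in these differences was not tested.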
